A study of Mus musculus with 8 samples.

Results

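Levels of 8 named long noncoding RNAs were measured in the livers of obese diabetic mice. The RNAs were Malat1, Neat1, Gas5, Snhg1, Snhg12, Kcnq1ot1, H19 and Meg3. Their features were taken by gene symbol alone, with no measured value in the rule, and were 8 of the 41388 gene features counted. Of these, 7 were matched by Ensembl ID, and Snhg1 was matched by its coordinates because its feature ID is not in the GENCODE M21 annotation. The animals were littermate db/db mice, which lack a working leptin receptor, with the strain given as C57B/6J. All were randomised at 5 weeks of age and sampled at 10 weeks, after an adenovirus had been given through the tail vein. In the AdGFP group (n = 4, genotype label "control") the virus carried green fluorescent protein, and in the AdNAMPT group (n = 4, genotype label "NAMPT overexpression") it carried the NAD-salvage enzyme NAMPT. The db/db genotype stands in the sample titles and not in the genotype label, and overexpression lasted 4 to 5 weeks per the series description. The study gives shorter times after adenovirus, in its methods and in a figure legend on white fat of db/db mice. Libraries are named by group and mouse number, for example AdNAMPT 1.

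Long noncoding RNAs are transcripts that are not translated into a protein of their own and that act in several ways. Malat1 gathers at nuclear speckles, the stores of splicing factors, and Neat1 is the scaffold of paraspeckles, nuclear bodies that form around it. Gas5, Snhg1 and Snhg12 are host genes: small nucleolar RNAs (snoRNAs), which guide chemical changes of ribosomal RNA, are cut from their introns, while the spliced remainder is a target of nonsense-mediated decay. Kcnq1ot1, H19 and Meg3 are imprinted, which means that they are made from the copy inherited from one parent. H19 is abundant in fetal liver and is switched off after birth.

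How these RNAs end bears on whether a library can hold them, so their 3′ ends are shown first. Malat1 and the long isoform of Neat1 are cut by RNase P and end in a genome-encoded A-rich tract, which pairs with U-rich stretches in place of a poly(A) tail, whereas most other long noncoding RNAs are cut after a polyadenylation signal. The sequences are from GENCODE M21 transcripts on GRCm38, 5′ to 3′. In the first pair, capitals mark 2 shared stretches: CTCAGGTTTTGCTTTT, the longest that the last 80 bases of Neat1-201 have in common with Malat1-201, and AAAAAGCAAAA, the longest with which Neat1-201 ends. In the second pair, the short Neat1 isoform and Snhg12, capitals mark the polyadenylation signal AATAAA.
Malat1-201, chr19:5795933-5796042, minus strand: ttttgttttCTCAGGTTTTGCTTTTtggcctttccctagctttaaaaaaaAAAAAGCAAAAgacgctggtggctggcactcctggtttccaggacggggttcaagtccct
Neat1-201, chr19:5824708-5824787, minus strand: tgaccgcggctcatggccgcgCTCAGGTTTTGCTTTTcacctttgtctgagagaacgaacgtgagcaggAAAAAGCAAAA
Neat1-202, chr19:5842307-5842356, minus strand: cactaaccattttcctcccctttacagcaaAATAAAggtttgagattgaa
Snhg12-201, chr4:132310975-132311024, plus strand: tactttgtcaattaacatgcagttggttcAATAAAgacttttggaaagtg

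The stretch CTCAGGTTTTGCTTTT was found in 2 of 141704 transcripts (0.00141%), and these were Malat1-201 and Neat1-201 themselves. The stretch AAAAAGCAAAA was in 0.436% of transcripts. It was preceded in Malat1-201 by further A bases, in a run of 12 in all, and was followed there by 292 more annotated bases, while Neat1-201 stopped at it. The search covered the transcript strand only. The signal AATAAA stood in the last 40 bases of 25.8% of all transcripts and of 39.3% of those annotated as protein_coding. Among members it stood at the end of 1 of 4 Neat1 transcripts, 8 of 10 of Snhg12, 10 of 18 of Snhg1, 1 of 25 of Gas5, 4 of 7 of H19, 4 of 11 of Meg3 and the 1 of Kcnq1ot1. For Malat1 it was in 3 of 4, not in Malat1-201.

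The libraries held 12006713 to 19879814 counted reads. A floor of 3 reads corresponded to between 0.151 and 0.250 CPM, the count of a gene scaled to the library total, which covers counting error only. Genes over 1 CPM in at least 3 libraries were tested, and 7 of the 8 members were among the 12270 that were; H19 was not. Nampt, the gene carried by the virus, did not mark the groups apart: it lay between 102 and 153 CPM in AdGFP and between 120 and 178 CPM in AdNAMPT (limma log2 fold change 0.08 ± 0.15 SE, adjusted p = 0.915). The groups are therefore those of the labels, and AdNAMPT below means the libraries labelled so.

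No member was called different between the groups. In limma, with Benjamini-Hochberg adjustment over all tested genes, 0 of 7 members reached an adjusted p of 0.05, against 0.277% of all genes (34 of 12270, of which 2 were higher and 32 lower in AdNAMPT). None of the 7 reached an unadjusted p of 0.05 in this fit, against 9.69% of all genes, and edgeR's quasi-likelihood test and DESeq2 likewise called 0 of 7, with 0 at an unadjusted p under 0.05. The 2 groups overlapped for all 7 tested members, on CPM and after TMM scaling, the scale of the limma fit. On CPM they were apart for 8.22% of all tested genes, with AdNAMPT higher for 7.36% and lower for 0.856%. After TMM scaling AdNAMPT was higher for 2.09% and lower for 2.70%. With library totals alone as the scale, the median log2 fold change of all genes was 0.09. In part for this reason, the CPM of tested genes given below tend to stand higher in AdNAMPT than the limma estimates do. The limma fit also weighted the libraries unequally. Estimates were above 0 for 5 members and below 0 for 2, with a median of 0.08 on the log2 scale against 0.00 for all genes tested. The annotated classes of the members had medians of 0.05 (lincRNA), 0.08 (processed transcript) and 0.04 (antisense). An estimate with an interval across 0 does not show that the groups are alike, and the bounds for each member follow.

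**Figure D1:**
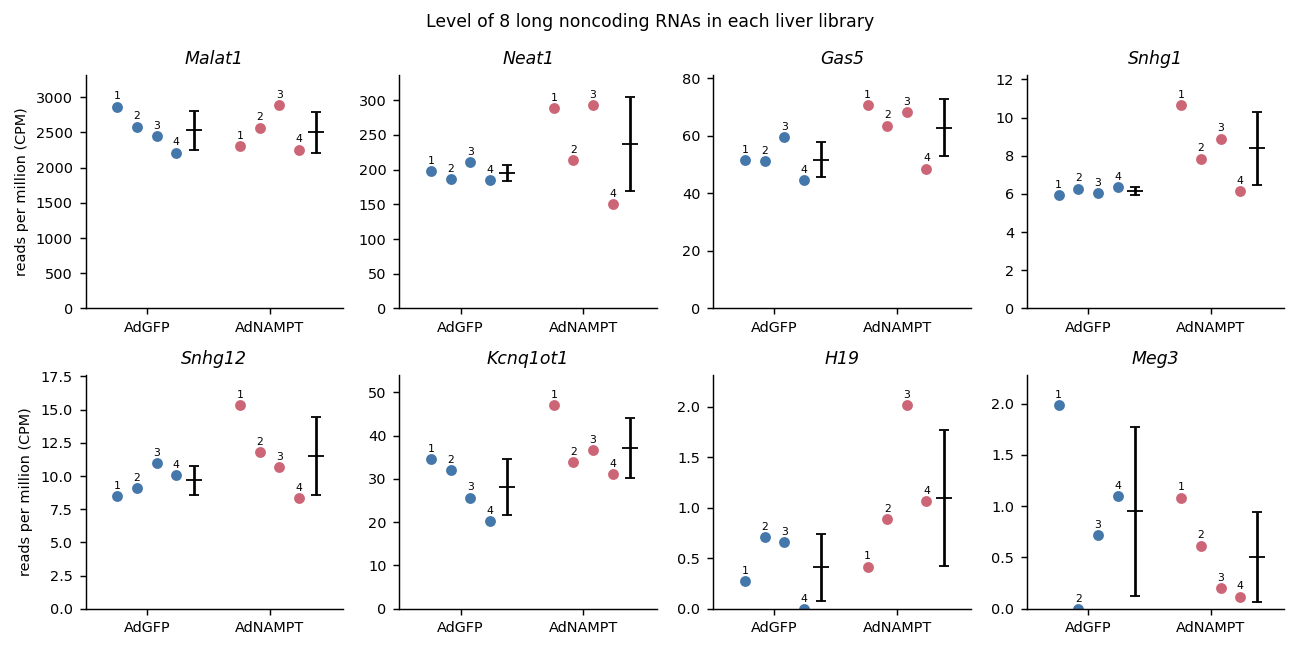
Deposited CPM of each member (vertical axis, from 0, one panel per gene) in the 4 AdGFP (blue) and 4 AdNAMPT (red) libraries, numbered by mouse, with the group mean and SD in black. The groups overlap in every panel; Neat1, Snhg1 and Snhg12 spread more widely in AdNAMPT, where library 4 is the lowest.

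Per kilobase of exon, Malat1 was the highest of the 8. Its mean over the 8 libraries was 360 ± 37.4 RPKM (SD), followed by Gas5 at 15.2 ± 2.56, Neat1 at 10.4 ± 2.41, Snhg12 at 6.52 ± 1.4, Snhg1 at 2.47 ± 0.586, Kcnq1ot1 at 0.387 ± 0.0931, H19 at 0.317 ± 0.258 and Meg3 at 0.0402 ± 0.0364 RPKM. The first 6 stood in this order in 8 of 8 libraries, although the ranges of Gas5 and Neat1 overlapped between animals. Kcnq1ot1 and H19 were not distinct, with Kcnq1ot1 higher in 6 of 8 libraries, and H19 exceeded Meg3 in 7 of 8. Malat1 was 23.7 times Gas5 by mean RPKM. RPKM divides by the whole annotated exon length, 84.4 kb for Kcnq1ot1 and 20.8 kb for Neat1, so for Neat1 it averages over the short and long isoforms, which the counts do not separate.

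Malat1 (ENSMUSG00000092341) is a gene on the minus strand at chr19:5795690-5802672 on GRCm38. It was counted at 2864, 2582, 2452 and 2213 CPM in AdGFP 1 to 4, and at 2302, 2568, 2888 and 2255 CPM in AdNAMPT 1 to 4. The 2 groups covered the same range, and the highest and the lowest libraries of each were close to those of the other. The mean was 2528 ± 271 for AdGFP and 2503 ± 291 for AdNAMPT (CPM ± SD, n = 4 mice a group), with a log2 fold change of -0.08 (95% interval -0.33 to 0.16, adjusted p = 0.861 in limma). Malat1 had 27642 or more reads in each library, so that counting error is small beside the spread between mice. The estimate was -0.16 without AdGFP 4 and -0.01 without AdGFP 1, and 0.00 with library totals alone as the scale.

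Neat1 (ENSMUSG00000092274) lies 22.0 kb from Malat1, on the same strand at chr19:5824708-5845478. Its CPM were 198, 186, 211 and 185 in AdGFP and 288, 214, 293 and 150 in AdNAMPT. The AdGFP libraries were close together, whereas AdNAMPT 1 and 3 were above them, AdNAMPT 2 was just above and AdNAMPT 4 was below. The coefficient of variation was 6.15% in AdGFP and 28.7% in AdNAMPT; this difference in spread was not tested. The means were 195 ± 12 and 236 ± 67.8 CPM, and the log2 fold change was 0.08 (interval -0.26 to 0.42, adjusted p = 0.915 in limma). The estimate was 0.21 without AdNAMPT 4 and 0.02 without AdNAMPT 1.

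The proteins that share these nuclear bodies were tested as lists. Of 17 paraspeckle proteins, all were tested, 0 rose and 0 fell, and their median log2 fold change was -0.03. The 2 most abundant were Hnrnpk, an RNA-binding protein needed for paraspeckles, at 89.2 to 101 CPM in AdGFP and 93.6 to 99.0 in AdNAMPT, and Smarca4, a chromatin remodeller, at 56.6 to 70.3 and 55.7 to 97.7 CPM. Of 17 nuclear speckle and splicing proteins, 16 were tested, 0 rose and 0 fell, with a median of 0.05. Son, a scaffold of speckles, was at 147 to 167 CPM in AdGFP and 157 to 180 in AdNAMPT, and the splicing factor Srsf5 at 67.2 to 82.0 and 75 to 103 CPM. Of 18 nuclear long noncoding RNAs, members included, 17 were matched and 15 tested, and 0 passed in either direction (median 0.01). The most abundant non-members were Oip5os1, at 78.2 to 96.2 CPM in AdGFP and 93.2 to 98.3 in AdNAMPT, and Mir22hg, at 21.5 to 32.1 and 21 to 29.7 CPM.

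The 3 snoRNA hosts had the same highest library, AdNAMPT 1, and none was called. Gas5 (ENSMUSG00000053332, plus strand, chr1:161034422-161038539) was at 51.5, 51.1, 59.4 and 44.7 CPM in AdGFP and at 70.7, 63.6, 68.2 and 48.6 CPM in AdNAMPT. AdNAMPT 1, 2 and 3 were above all AdGFP libraries, and AdNAMPT 4 was among them. The means were 51.7 ± 6.05 and 62.8 ± 9.89 CPM, with a log2 fold change of 0.16 (interval -0.09 to 0.42, adjusted p = 0.702 in limma).

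Snhg1 (ENSMUSG00000097188, plus strand, chr19:8723496-8726442) was at 5.95, 6.28, 6.03 and 6.36 CPM in AdGFP. In AdNAMPT it was at 10.7, 7.85, 8.90 and 6.13 CPM. The AdGFP values were nearly equal, AdNAMPT 1 to 3 were above them and AdNAMPT 4 fell inside their range. The means were 6.16 ± 0.197 and 8.39 ± 1.90 CPM, and the log2 fold change was 0.27 (interval -0.03 to 0.57, adjusted p = 0.567 in limma), from 87 to 177 reads a library.

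Snhg12 (ENSMUSG00000086290, plus strand, chr4:132308678-132311024) was at 8.48, 9.11, 11.0 and 10.1 CPM in AdGFP and at 15.3, 11.8, 10.7 and 8.31 CPM in AdNAMPT. AdNAMPT 1 and 2 were above the AdGFP range, AdNAMPT 3 was inside it and AdNAMPT 4 was below it. The means were 9.66 ± 1.10 and 11.5 ± 2.92 CPM, with a log2 fold change of 0.05 (interval -0.27 to 0.37, adjusted p = 0.943 in limma). The sign was negative when AdGFP 1, AdNAMPT 1 or AdNAMPT 2 was left out.

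AdNAMPT 1 was also the library that limma weighted least, at 0.440 where the others had 0.811 to 1.41; such weights are lower the farther a library's genes lie from the fit. Without it the log2 fold changes of Gas5, Snhg1 and Snhg12 were 0.12, 0.21 and -0.04. Without AdNAMPT 4 they were 0.26, 0.37 and 0.21, and 0 of the 3 was called in either case. Over the 16 tested genes of the snoRNA host list, 8 were highest in AdNAMPT 1 on CPM, where 29.8% of all tested genes were. On TMM-scaled log2 CPM, 13 of 16 hosts were above their own mean in each of AdNAMPT 1, 2 and 3, and 4 of 16 in AdNAMPT 4. In the AdGFP libraries the count was 4, 4, 7 and 2. Between 50.0% and 52.5% of all tested genes were above their own mean in any library.

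Of the 20 listed hosts, 18 were matched and 16 tested: 0 rose, 0 fell, 13 estimates were above 0 and 3 below, and 4 had an unadjusted p under 0.05, a limit that 9.69% of all tested genes met. The median log2 fold change was 0.20, against 0.00 for all genes. Tested noncoding classes, with any hosts in them, had medians of 0.14 (bidirectional promoter lncRNA), 0.08 (processed transcript), 0.05 (lincRNA) and 0.04 (antisense). The 2 most abundant hosts other than members were Snhg14, at 17.7 to 21.5 CPM in AdGFP and 18.3 to 21.7 in AdNAMPT, and Snhg11, at 12.3 to 15.2 and 12.6 to 17.7 CPM. The 4 with an unadjusted p under 0.05 are named here after their values were seen. Snhg5 was at 2.53 to 3.76 CPM in AdGFP and 4.13 to 7.0 in AdNAMPT, with no overlap (log2 fold change 0.55 ± 0.19 SE, adjusted p = 0.425 in limma). On CPM, 8.22% of all tested genes had no overlap, 7.36% with AdNAMPT higher. Zfas1 had 0.36 ± 0.13 (adjusted p = 0.435), Epb41l4aos 0.34 ± 0.14 (adjusted p = 0.487) and Snhg7 0.41 ± 0.17 (adjusted p = 0.492 in limma).

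**Figure D2:**
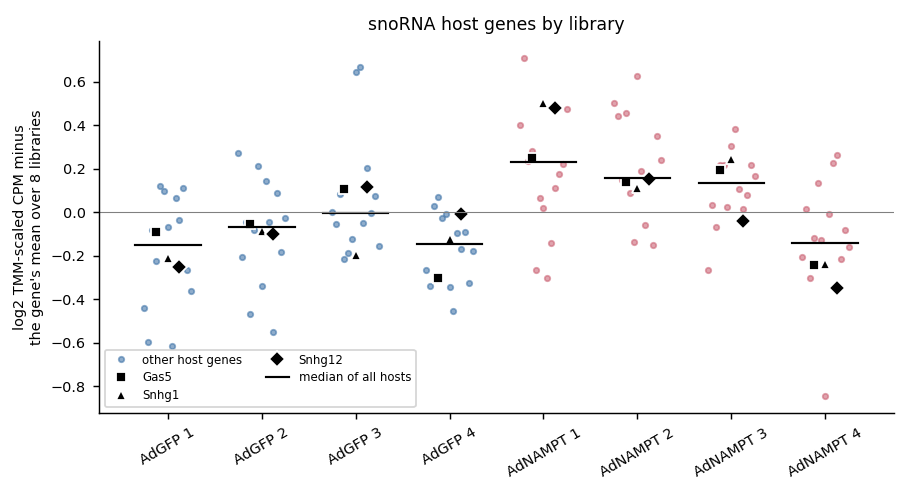
Each of 16 tested snoRNA host genes in each library, as log2 TMM-scaled CPM minus the gene's own mean over the 8 libraries (blue, AdGFP; red, AdNAMPT; black symbols, the 3 members; bars, median of all 16). The medians are 0.23, 0.16 and 0.13 in AdNAMPT 1 to 3 and -0.14 in AdNAMPT 4, against -0.15 to 0.00 in AdGFP.

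Host genes of snoRNAs are known for starting at a pyrimidine tract, which places them under the same translational control as ribosomal protein genes. The start regions of the 3 hosts are shown for this reason, from RefSeq on GRCm38.p6, 5′ to 3′ on the plus strand, with the longest run of C and T within 10 bases of the annotated start in capitals. For Gas5 the second of 2 RefSeq starts is shown.
Gas5, chr1:161035136-161035195: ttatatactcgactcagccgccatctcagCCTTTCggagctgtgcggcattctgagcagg
Snhg1, chr19:8723457-8723516: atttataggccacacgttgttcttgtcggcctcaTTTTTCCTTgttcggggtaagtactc
Snhg12, chr4:132308648-132308707: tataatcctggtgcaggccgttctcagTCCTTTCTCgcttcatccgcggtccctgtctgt
The run was 6 bases long for Gas5 and 9 for Snhg1 and for Snhg12, and a run of 6 or more was present at 30% of 32851 RefSeq starts. It was 5 or fewer bases at the other Gas5 start and at the starts of Malat1, Kcnq1ot1 and Meg3. Neat1 and H19 had no start in this search. The starts were not tested against expression.

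The snoRNAs inside the hosts could not be read from these counts. The annotation places 21 snoRNA features in the 3 hosts, 9 in Gas5, 8 in Snhg1 and 4 in Snhg12. Of these, 20 share bases with an annotated host exon, and all 20 were listed at 0, as reads that fit 2 features were not counted. The exception was Snora16a in an intron of Snhg12 (chr4:132309465-132309600), with 40 reads over the 8 libraries and at most 0.418 CPM. The same rule hides part of the hosts: 17.8% of the exon bases of Gas5, 21.1% of Snhg1 and 20.5% of Snhg12 are shared with another feature, compared with 7.32% of Malat1, 1.85% of Neat1, 1.33% of Kcnq1ot1, 9.49% of H19 and 8.29% of Meg3. Reads in bases shared with a feature on the same strand are missing from the members' levels. For bases shared only with the opposite strand, as all those of Kcnq1ot1 are, this depends on whether the counting used strand. Strand use in the counting is not stated, so for Malat1, Kcnq1ot1, H19 and Meg3, which have an annotated feature on the opposite strand within their exons, reads of the 2 strands may not have been told apart.

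Proteins that act on the hosts or their snoRNAs were also tested as lists. Of 15 nonsense-mediated decay factors, all tested, 0 rose and 0 fell (median log2 fold change -0.01). The most abundant were the kinase Smg1, at 60.9 to 69.0 CPM in AdGFP and 72.0 to 75.7 in AdNAMPT (log2 fold change 0.06 ± 0.07 SE, adjusted p = 0.833 in limma), and Pnrc2, at 46.1 to 49.6 and 39.7 to 50.6 CPM. Of 17 snoRNP and ribosome biogenesis proteins, 0 rose and 0 fell (median 0.04). Ncl, nucleolin, was at 71.7 to 117 CPM in AdGFP and 64.3 to 85.9 in AdNAMPT, and Nop10, a core protein of H/ACA snoRNPs, at 53.1 to 69.8 and 63.3 to 76.9 CPM.

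Kcnq1ot1 (ENSMUSG00000101609, minus strand, chr7:143212155-143296549) is transcribed antisense to Kcnq1 from the paternal copy and silences neighbouring genes. Its CPM were 34.6, 32.0, 25.7 and 20.2 in AdGFP and 47.0, 33.8, 36.7 and 31.0 in AdNAMPT. AdNAMPT 1 and 3 were above the AdGFP range, and AdNAMPT 2 and 4 were inside it. The means were 28.1 ± 6.45 and 37.1 ± 6.97 CPM, with a log2 fold change of 0.28 (interval -0.08 to 0.65, adjusted p = 0.633 in limma). The estimate was 0.11 without AdGFP 4, the lowest library, and 0.42 without AdGFP 1.

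In the Kcnq1 imprinted domain, 11 genes were listed and 7 tested, and 0 rose or fell. Kcnq1, a potassium channel, was at 0.956 to 1.91 CPM in AdGFP and 1.77 to 2.19 in AdNAMPT, with a log2 fold change of 0.55 ± 0.23 SE (adjusted p = 0.492 in limma). Cdkn1c, a cell cycle inhibitor that Kcnq1ot1 is known to silence in cis, was at 2.33 to 3.39 and 2.25 to 3.01 CPM. Slc22a18, a transporter, was at 103 to 125 and 103 to 129 CPM. The remaining tested genes were Cd81 at 283 to 320 and 297 to 353 CPM, Nap1l4 at 45.6 to 52.8 and 46.1 to 57.4 CPM, and Tssc4 at 7.70 to 10.5 and 9.43 to 12 CPM. Groups overlapped for each of these genes, and estimates were above 0 for 4 of the 7 and below 0 for 3.

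The profile of Kcnq1ot1 over the 8 libraries, which spanned 1.10 on the log2 scale, was nearest to those of Gm7160 (root mean square difference of centred log2 CPM 0.0997) and F8a (0.115). F8a, for example, was at 3.43 CPM in AdGFP 4 and 6.58 CPM in AdNAMPT 1, the same lowest and highest libraries as for Kcnq1ot1. They are among the nearest of 12270 genes and are given as a description.

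H19 (ENSMUSG00000000031, minus strand, chr7:142575529-142578143) was near the limit of detection. Its reads numbered 4, 10, 11 and 0 in AdGFP and 5, 13, 40 and 18 in AdNAMPT, which is 0.273, 0.706, 0.657 and 0 CPM against 0.416, 0.888, 2.01 and 1.06 CPM. The count of 0 in AdGFP 4 allows up to 0.219 CPM. AdNAMPT 3 was the highest, AdNAMPT 2 and 4 were also above the AdGFP range, and AdNAMPT 1 was inside it. The means were 0.409 ± 0.334 and 1.09 ± 0.670 CPM (exact permutation test, two-sided, p = 0.114, n = 4 each). In the fit without a filter on low counts the log2 fold change was 2.01 (interval 0.36 to 3.66, unadjusted p = 0.0210, adjusted p = 0.587 in limma). With 1 library removed, the filter asked for 1 library fewer over 1 CPM, and H19 passed it in 6 such fits: the estimate was 1.07 without AdGFP 4 and 2.30 to 2.74 in the other 5. In the H19-Igf2 imprinted domain, 1 of 7 listed genes was tested, Lsp1, at 0.565 to 1.98 CPM in AdGFP and 1.26 to 2.65 in AdNAMPT. Igf2, the growth factor that shares enhancers with H19, did not pass the filter and reached at most 0.418 CPM in any library.

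Meg3 (ENSMUSG00000021268, plus strand, chr12:109541001-109571726) was the most variable member. It had 29, 0, 12 and 15 reads in AdGFP and 13, 9, 4 and 2 in AdNAMPT, which is 1.98, 0, 0.717 and 1.10 CPM against 1.08, 0.615, 0.201 and 0.118 CPM. The groups overlapped: AdGFP 1 was the highest, AdGFP 2 had no read, which allows up to 0.212 CPM, and AdNAMPT 3 and 4 were also low. The means were 0.949 ± 0.825 and 0.504 ± 0.443 CPM, and the log2 fold change was -0.99 (interval -3.33 to 1.35, adjusted p = 0.815 in limma). It ran from -1.84 without AdGFP 2 to -0.44 without AdNAMPT 4. The spread of its TMM-scaled log2 CPM over the 8 libraries, an SD of 1.37, was greater than that of 99.6% of tested genes, at a level where counting error is large.

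The 3 genes with profiles nearest to that of Meg3 were Mirg (root mean square difference 0.658 over 8 libraries), Avpr1a (0.696) and Igfbp2 (0.734). They were picked from 12270 genes for this nearness, so the low libraries they share with Meg3 are a description and not a test. Mirg is a microRNA host transcript in the same imprinted domain and lies 158 kb downstream of Meg3. It was at 5.13, 0.424, 2.09 and 3.14 CPM in AdGFP and 3.58, 2.66, 0.201 and 0.236 CPM in AdNAMPT. Mirg was thus low in AdGFP 2, AdNAMPT 3 and AdNAMPT 4, the same 3 libraries in which Meg3 was lowest, and its log2 fold change was -1.80 ± 0.93 SE (adjusted p = 0.577 in limma).

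Avpr1a, the hepatic vasopressin receptor, was also lowest in these 3 libraries, at 4.09, 3.82 and 4.95 CPM, and between 8.30 and 14.3 CPM in the other 5. Igfbp2, a secreted binding protein of insulin-like growth factors, was at 22.4 CPM in AdGFP 2 and 162 CPM in AdNAMPT 1. Of the 8 listed genes of the Dlk1-Meg3 domain, 3 were tested (Meg3, Mirg and Wdr25) and none passed; Wdr25 was at 4.54 to 5.74 CPM in AdGFP and 3.96 to 6.33 in AdNAMPT. Rian, Dlk1 and Rtl1 were listed at 0 in all 8 libraries. As reads that fit 2 features were not counted, a 0 need not mean that the RNA was absent.

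**Figure D3:**
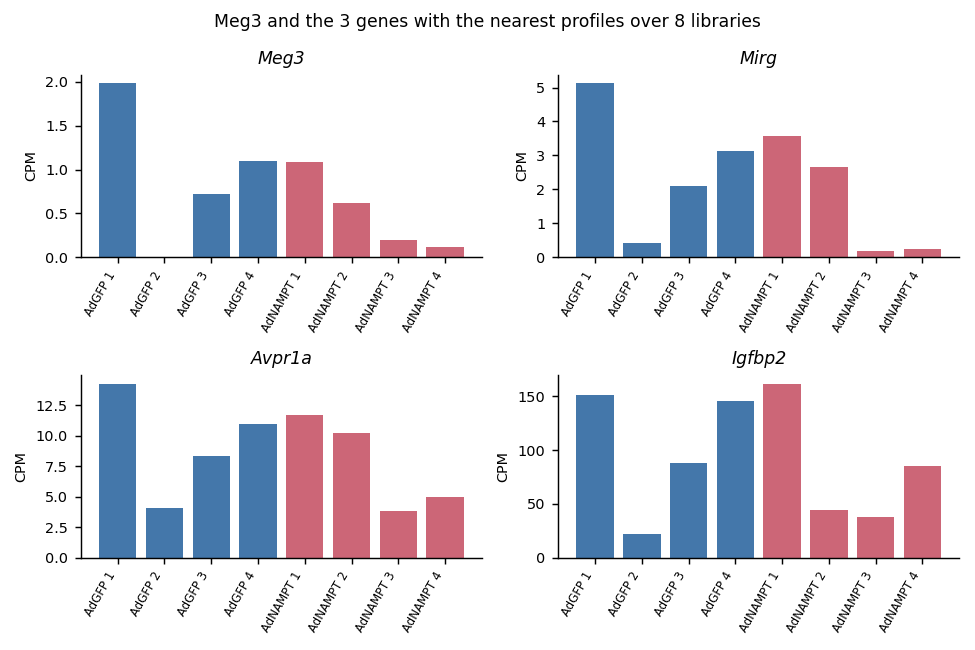
CPM (vertical axes, from 0, each with its own scale) of Meg3 and of the 3 genes with the nearest profiles, as a bar per library (blue, AdGFP; red, AdNAMPT). AdGFP 2, AdNAMPT 3 and AdNAMPT 4 are the lowest libraries for Meg3, Mirg and Avpr1a; Igfbp2 departs from this in AdNAMPT 4, at 85.5 CPM.

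In the imprinted network list, 18 of 19 genes were matched and 12 tested, and 0 rose or fell (median log2 fold change 0.00). The highest were the amino acid transporter Slc38a4, at 1596 to 1785 CPM in AdGFP and 1373 to 1727 in AdNAMPT, and Dcn, decorin, at 149 to 169 and 160 to 180 CPM. Among 26 other named long noncoding RNAs, 3 of them members, 23 were matched and 8 tested, and 0 rose or fell (median 0.03). The most abundant non-members were 0610005C13Rik, at 113 to 137 CPM in AdGFP and 120 to 159 in AdNAMPT, and Sra1, at 60.6 to 71.6 and 67.4 to 80.5 CPM.

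**Figure D4:**
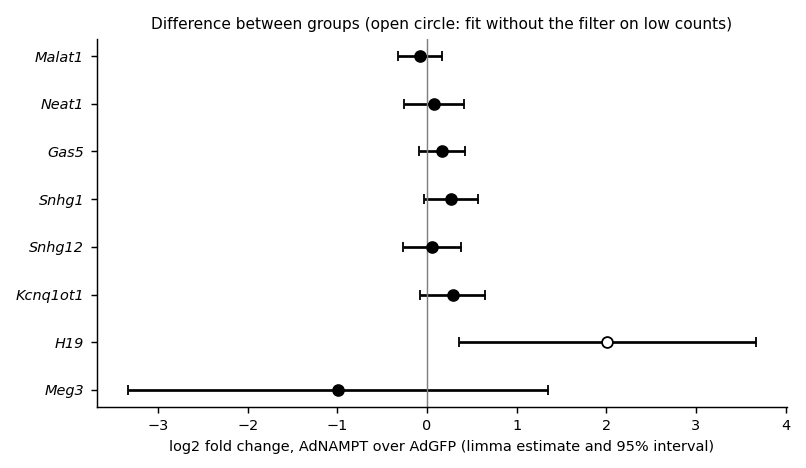
Log2 fold change of each member, AdNAMPT over AdGFP (horizontal axis), with the 95% interval from limma; the open circle for H19 is from the fit without a filter on low counts. Intervals of the 7 tested members include 0 and are widest for Meg3, from -3.33 to 1.35.

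The labels name Ribo-Zero, which removes ribosomal RNA, whereas the study's methods describe selection of polyadenylated RNA, and so the members were set beside RNAs that are made without a poly(A) tail. The 2 most abundant of a list of small structural RNAs were Rn7sk, the 7SK RNA that holds back transcription elongation, and Rpph1, the RNA of the RNase P that cuts Malat1 and long Neat1. Rn7sk was at 10892, 8163, 11863 and 10121 CPM in AdGFP and at 12915, 11197, 12370 and 10195 CPM in AdNAMPT, and thus above Malat1 in each library. Rpph1 was at 7920, 4950, 7829 and 5977 CPM in AdGFP and at 9892, 7472, 10446 and 8717 CPM in AdNAMPT. The listed structural RNAs together took 2.04%, 1.46%, 2.10% and 1.74% of all counts in AdGFP and 2.47%, 2.01%, 2.45% and 2.08% in AdNAMPT. The groups overlapped (exact permutation test, two-sided, p = 0.143, n = 4 each). In this list 6 genes were tested, 0 rose and 0 fell, all 6 estimates were above 0, and the median was 0.30.

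Shares of 9 classes grouped here as such RNAs were compared, and the tails themselves were not measured. The replication-dependent histone genes, whose RNAs end in a stem-loop, took 0.0531% to 0.0617% of counts in AdGFP and 0.0604% to 0.0812% in AdNAMPT, led by Hist1h2bc, at 92.4 to 132 and 99.3 to 119 CPM, and Hist1h4d, at 75.6 to 98.9 and 95.3 to 121 CPM. The snoRNAs with the scaRNAs, their counterparts in Cajal bodies, took 0.0888% to 0.133% and 0.0987% to 0.145%, led by Gm25395, at 162 to 245 and 202 to 282 CPM, and Gm22442, at 150 to 256 and 176 to 219 CPM. The snRNAs took 0.00423% to 0.00682% and 0.00495% to 0.00661%, led by Gm24407, at most 31.4 CPM, and Gm24265, at most 21.1 CPM. Mitochondrial tRNAs took 0.00813% to 0.0135% and 0.0120% to 0.0187%, led by mt-Tc, at most 106 CPM, and mt-Ta, at most 64.6 CPM. Groups overlapped for these 4 classes, with exact permutation p of 0.0857, 0.829, 0.343 and 0.200 in the order given, two-sided.

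In 3 classes the groups did not overlap, and all 3 were lower in AdNAMPT. Mitochondrial rRNA took 1.88%, 2.56%, 1.77% and 1.82% of counts in AdGFP and 1.44%, 1.4%, 1.62% and 0.863% in AdNAMPT; mt-Rnr2 was at 15935 to 21778 and 7848 to 14867 CPM, and mt-Rnr1 at 1720 to 3825 and 778 to 1307 CPM. The features annotated as microRNAs took 0.150% to 0.178% and 0.0271% to 0.0336%. Most of it came from Mir6236, at 1079 to 1438 CPM in AdGFP and 176 to 230 in AdNAMPT, and Gm23935, at 124 to 209 and 35 to 40.8 CPM. Whether the reads on these features came from microRNAs was not tested. Gm42418, a gene model on chromosome 17 annotated as a lincRNA, took 0.996% to 2.25% and 0.200% to 0.233%. Which RNA the reads on Gm42418 came from was not tested. The exact permutation p was 0.0286 for each of the 3, the smallest that 4 against 4 allows, and 0.0857 after adjustment over the 9 classes. In limma, these 3 features were lower in AdNAMPT, with log2 fold changes of -2.74 for Mir6236 (SE 0.11, adjusted p = 2.77e-07), -2.31 for Gm23935 (SE 0.16, adjusted p = 1.44e-05) and -2.90 for Gm42418 (SE 0.19, adjusted p = 1.39e-05). These shares differ with the group, so that any part of library preparation in them cannot be told apart from treatment. The rRNA features were left out of every fit. In an alternative fit the other classes, except mitochondrial tRNA, were also left out before scaling. There the estimate was -0.08 for Malat1, 0.08 for Neat1, 0.17 for Gas5 and 0.27 for Snhg1. It was 0.06 for Snhg12, 0.29 for Kcnq1ot1 and -0.98 for Meg3, and 0 of 7 members were called. Beyond this change of scale, the part of these classes in the members' values was not tested.

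Cytosolic rRNA features took at most 0.0657% of counts, in AdGFP 2, and at most 0.000767% in the other 7 libraries. This class holds only features annotated as rRNA, so any rRNA reads counted on other features are not in it. The 2 highest features, Gm24601 and n-R5-8s1, were at 377 and 278 CPM in AdGFP 2 and at no more than 3.73 CPM elsewhere. Without AdGFP 2, the count of members called was again 0, and the estimate of Meg3 was -1.84 (adjusted p = 0.364 in limma).

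**Figure D5:**
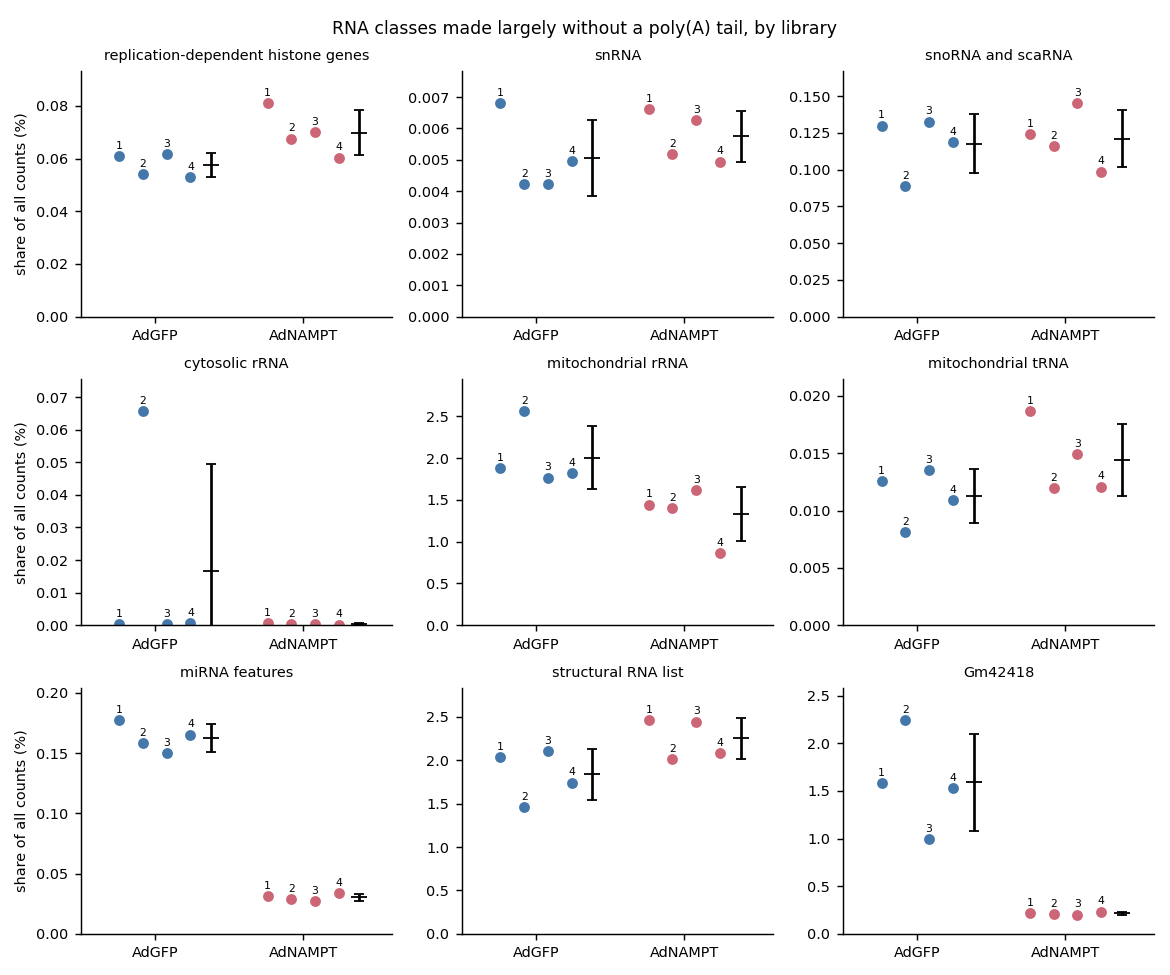
Share of all counts (vertical axes in percent, from 0) taken by 9 classes grouped here as RNA made largely without a poly(A) tail. Each library is numbered by mouse (blue for AdGFP, red for AdNAMPT), with the group mean and SD in black. The 4 red points lie under all 4 blue points for mitochondrial rRNA, microRNA features and Gm42418, and cytosolic rRNA is high in AdGFP 2 alone.

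Set against 7SK reads in place of the library total, the members again overlapped between groups. There were 263, 316, 207 and 219 Malat1 reads per 1000 Rn7sk reads in AdGFP and 178, 229, 233 and 221 in AdNAMPT (exact permutation test, two-sided, p = 0.286, n = 4 each). Neat1 had 17.8 to 22.8 in AdGFP and 14.7 to 23.7 in AdNAMPT, and Gas5 4.41 to 6.26 and 4.77 to 5.68 (exact permutation p = 0.714 and 0.629). On this scale Snhg1 was at 0.509 to 0.770 and 0.601 to 0.825, Snhg12 at 0.778 to 1.12 and 0.815 to 1.19, and Kcnq1ot1 at 2.0 to 3.92 and 2.97 to 3.64 reads per 1000 Rn7sk reads.

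The libraries were from whole liver, in which fewer cells of a type and less RNA per cell cannot be told apart. Hepatocyte markers were detected for 8 of 8 genes, with a summed level of 94709 to 120767 CPM in AdGFP and 94477 to 118743 CPM in AdNAMPT, as the tissue label states. The 8 Kupffer cell markers summed to 284 to 351 CPM in AdGFP and 208 to 343 CPM in AdNAMPT, and all 8 estimates were below 0, though 0 passed the test. Sinusoidal endothelial markers summed to 359 to 444 and 372 to 458 CPM, stellate cell and fibroblast markers to 442 to 487 and 446 to 508 CPM, and cholangiocyte markers to 26.7 to 42.2 and 29.6 to 44.4 CPM. Markers of proliferating cells summed to 20.6 to 33.8 and 18.7 to 47.7 CPM, of erythroid cells to 258 to 496 and 339 to 556 CPM, and of lymphocytes to 0.292 to 0.777 and 0.666 to 1.89 CPM. No marker list was at 0, the groups overlapped in each, and their part in the members' values was not tested.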

How the data were processed

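Total RNA from liver was sequenced from 4 AdGFP and 4 AdNAMPT mice. The submitters' processing notes name STAR 2.4.0b and featureCounts 1.4.5 on GRCm38, and the study's methods add Ensembl release 76 and unique, unambiguous reads. The authors deposited whole read counts per gene, CPM (each count scaled to its library total) and RPKM (that CPM per kilobase of exon); both were recomputed from the counts and equalled the deposited values within a relative difference of 1e-09. Following the study's methods, 355 rRNA features were left out, genes over 1 CPM in at least 3 libraries were kept, and the counts were scaled by TMM and fitted with limma's voomWithQualityWeights (limma 3.58.1, edgeR 4.0.16, R 4.3.3); p was adjusted by Benjamini-Hochberg over all tested genes and 0.05 was the limit for a call. The fits were tested on simulated data. Class shares were compared by an exact permutation test over the 70 assignments (Python 3.11.15, scipy 1.17.1).

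Symbols were taken from GENCODE M21 (40340 of 41388 features), RefSeq synonyms or, with an overlap of at least 80% of both spans, coordinates. Snhg8, Snhg10, Norad, Dancr, Peg13, Mir122hg, Snrpn and Bc1 were not analysed here. Genes named beside members were, per list, the 2 with the highest mean CPM, all tested genes of the imprinted domains, the 2 highest features per class and, for members spanning over 1 log2, the 3 tested genes nearest in profile, of which 1 is not reported here. Alternatives were edgeR, DESeq2 1.42.0, no sample weights, other scalings and filters, GC correction (Snhg1 has no GC value), a replicate block and each library left out. The members and lists were chosen with earlier results of these data known.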

Additional observations from a re-analysis of the deposited data

Results flagged for a closer look

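In 34 groups of 4 libraries (8 members and 9 RNA classes in each group), 3 had a library far from the other 3 by Dixon's criterion, which chance meets in about 1 in 20 groups. None was a member. Cytosolic rRNA took 0.0657% of counts in AdGFP 2, where the other AdGFP libraries had 0.000314% to 0.000767%. Cytosolic rRNA took 0.000750% in AdNAMPT 1, where the other AdNAMPT libraries had 0.000189% to 0.000252%. Mitochondrial rRNA took 2.56% of counts in AdGFP 2, where the other AdGFP libraries had 1.77% to 1.88%.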

How the results depend on the processing

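No member or listed gene was called in any of the 19 alternative fits, nor was Snora16a, the host snoRNA with reads, where it was tested, and 28 to 75 genes were called in all: 75 with DESeq2 against 34, the others between 28 and 42. With library totals alone as the scale, the median log2 fold change of all genes was 0.09 and the estimate of Malat1 was 0.0041, of opposite sign. Snhg12 turned to -0.015 without AdGFP 1, -0.044 without AdNAMPT 1 and -0.038 without AdNAMPT 2. Unadjusted p was under 0.05 for at most 2 members in any fit.

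The replicate block, which pairs mice by number, called 41 genes (42 with GC correction) and 0 members. The mice are different animals and their same-number correlations were 0.23, -0.05, 0.21 and 0.01. With the pairing as sign flips, the differences were -0.674 percentage points for mitochondrial rRNA, -0.133 for microRNA features and -1.38 for Gm42418, each with an exact p of 0.125, the smallest possible. With group medians they were -0.426, -0.132 and -1.35, each with an exact permutation p of 0.0571. The snoRNA share, 0.0036 higher in AdNAMPT by the mean, was -0.0042 after TMM scaling and -0.0042 by medians. Leaving out 1 library gave -0.0060 to 0.0110 for the snoRNA share, 0.0086 to 0.0155 for histone genes, -0.770 to -0.489 for mitochondrial rRNA and -1.57 to -1.16 for Gm42418. The exact permutation p was 0.0571 for mitochondrial rRNA without AdGFP 2 or AdNAMPT 4 and for Gm42418 without any 1 AdNAMPT library, and it was 0.0286 for histone genes without AdNAMPT 4. Depth limits H19 and Meg3, with 0 to 40 reads a library.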
